A study of Gallus gallus with 6 samples.

Results

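Enteroendocrine cells are the hormone-secreting cells of the gut epithelium. They arise in the crypts under lineage factors such as NEUROD1, store peptides in dense granules with chromogranin A, and release them when nutrients or bacterial metabolites reach the gut lumen. The peptides act on motility, secretion, appetite and pancreatic function, and a further class of these cells makes serotonin from tryptophan through the enzyme TPH1. The 9 genes described here were chosen by symbol: the granule protein CHGA, the hormones GCG, CCK, PYY, NTS, SST and MLN, the serotonin enzyme TPH1 and the lineage factor NEUROD1. All 9 were found among 17623 rows of the gene table, 1 row each, and all 9 passed the filter on low counts. The row of PYY is described there as peptide YY-like, and RefSeq names the gene of the SST row SST1.

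The libraries were made from ileum, the most distal segment of the small intestine, of Taiping chickens labelled as male and 2 months old. Control birds ate a corn-soybean basal diet. The second group was given the same feed plus fructooligosaccharide, a fermentable chain of fructose units, at 1 mL per litre of water. FOS is used below for that supplement and its group, not for the FOS gene. There were 3 libraries per group, and their values are given in replicate order throughout. Nothing in the labels says that each library came from a separate bird. The p-values therefore reflect only the spread between libraries, which may be partly technical.

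Total counts ran from 14668289 to 18106651 per library. HINTW is a gene of the female-specific W chromosome. It stood at 111 to 158 CPM (the count scaled to library size) in 4 libraries, 2 in each group. In control 2 and FOS 2 it stood at 0.173 and 0.0697 CPM, so that 4 libraries went against their label as male. Libraries with and without HINTW cannot come from the same bird, so each group held more than 1 bird. FOS 1 stood apart in the mean levels of cell type genes. The mean log2 CPM of 15 enterocyte genes was 10.34 there and 8.94 to 9.83 elsewhere. That of 18 genes of enteric neurons and glia was 1.66 against 2.43 to 2.57, and that of 10 smooth muscle genes 8.26 against 8.76 to 9.26. Some genes of these lists departed from this. ANPEP of enterocytes (8468 CPM) and ACTA2 of smooth muscle (389 CPM) lay within the range of the other libraries in FOS 1. The mean of 10 erythrocyte and immune cell genes was also lowest in FOS 1, at 6.17 against 6.83 to 7.31. Between the groups edgeR called 0 of them, while 2 were lower at an unadjusted p under 0.05, where 4.27% of all genes tested were. These were the leukocyte gene PTPRC and the T cell gene CD3D, which DESeq2 called lower in FOS (adjusted p = 0.0184 and 0.045), though not with the replicate number as a block (adjusted p = 0.258 and 0.209). In either direction DESeq2 called 1.08% of all genes, and 0.833% with the block. Among the 18 neuron and glia genes, 1 was higher at an unadjusted p under 0.05 with edgeR. In that direction 5.14% of all genes tested met this. The gene was S100B of glia (log2 fold change 0.43, SE 0.18, edgeR adjusted p = 0.527). It was not low in FOS 1, at 25.4 CPM against 16.9 to 28.9 CPM elsewhere. The pancreas also makes GCG and SST. The insulin gene INS held 1 count in control 1 and 0 counts in the other 5 libraries, which allows up to 3 counts in each, and 0 of 9 pancreas genes found passed the filter. In bulk tissue, a change in the number of enteroendocrine cells and a change in RNA per cell cannot be told apart. Log2 fold changes of the members are therefore given below also without FOS 1, and among the 4 libraries with W-linked transcripts where this moves them by over 1.5 times.

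Transcripts of the 9 genes differed widely in level. Levels of different genes are compared as FPKM, which scales fragments to gene length and library size. CHGA had a mean of 257 FPKM over the 6 libraries and ranked between 177 and 395 among all rows. It was followed by NTS at 139 FPKM, GCG at 89.5, CCK at 55.3, MLN at 39.2, SST at 14.1, PYY at 8.95, TPH1 at 3.29 and NEUROD1 at 2.47. Of the 8 pairs of neighbours in this order, PYY and TPH1 were the pair whose ranges did not overlap over the 6 libraries. CHGA exceeded NTS, NTS exceeded GCG, and GCG exceeded CCK in 6 of 6 libraries, while CCK exceeded MLN, MLN exceeded SST, and SST exceeded PYY in 5 of 6. GCG and PYY, which mammalian L cells release together, were thus far apart in transcript level.

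**Figure D1:**
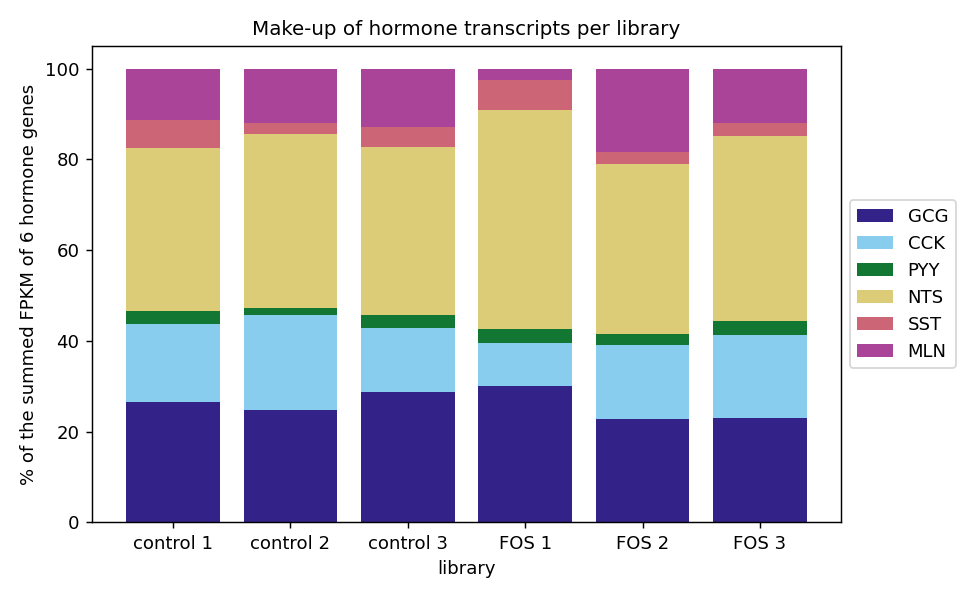
Share of each hormone gene in the summed FPKM of the 6 hormone genes (vertical axis, percent) in each library (horizontal axis). NTS held the largest share in all 6 libraries, from 36.1% to 48.5%, and the MLN share was 2.58% in FOS 1 and 18.5% in FOS 2.

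The makeup of the hormone transcripts overlapped between the groups. NTS, which encodes neurotensin, a peptide released after fat intake in mammals, gave 37.2% ± 1.11 of the summed FPKM of the 6 hormone genes in control and 42.3% ± 5.62 in FOS (SD, n = 3). GCG gave 26.7% ± 2.07 and 25.2% ± 4.06, and CCK 17.4% ± 3.41 and 14.7% ± 4.51 (SD, n = 3). The groups overlapped for the share of each of the 6 hormones. MLN gave 12.1% ± 0.739 in control and 11% ± 7.98 in FOS (SD, n = 3), the widest spread of the 6 hormones within the FOS libraries, whereas in control the spread was widest for CCK. These shares have no depth-based interval because they are made from FPKM.

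The comparison of interest was FOS against control. CHGA, NTS and PYY were higher in each FOS library than in each control library on the CPM scale, by 1.71-fold, 1.44-fold and 1.55-fold in mean CPM. GCG, CCK, SST, MLN, TPH1 and NEUROD1 overlapped between the groups. With edgeR's quasi-likelihood test 0 of 9 passed, whose Benjamini-Hochberg adjusted p over 13807 genes lay between 0.463 and 0.988, and the test called 0.0217% of all genes. DESeq2, which called 1.08% of all genes, and limma-voom also called 0 of 9 members, and limma-voom called 0 in each of the further lists below. At an unadjusted p under 0.05 there were 3 of 9, all higher in FOS, where 5.14% of all genes tested met this in that direction. Groups without overlap and higher in FOS made up 3 of 9 members and 8.58% of all genes tested. The log2 fold change was above 0 for 9 of 9 members, with a median of 0.33, against 51.1% of all genes tested and a median of 0.01. With limma on log2(FPKM + 1) it was above 0 for 7 of 9. With FOS 1 left out, CHGA, PYY, NTS and NEUROD1 had groups without overlap, where 14.8% of all genes tested did so in that direction, while CHGA and MLN had an unadjusted p under 0.05 (5.52% of all genes). Among the 4 libraries with W-linked transcripts, CHGA, GCG, PYY and NTS did not overlap (19.9% of all genes), and CHGA and NTS had an unadjusted p under 0.05 (4.22% of all genes). The log2 fold change was above 0 for 8 of 9 members without FOS 1 (50.3% of all genes). It was also above 0 for 8 of 9 among the 4 libraries with W-linked transcripts (50.7% of all genes). These counts without some libraries were added after the data were examined. The genes were chosen with earlier results of these data known, so these counts describe the 9 genes.

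**Figure D2:**
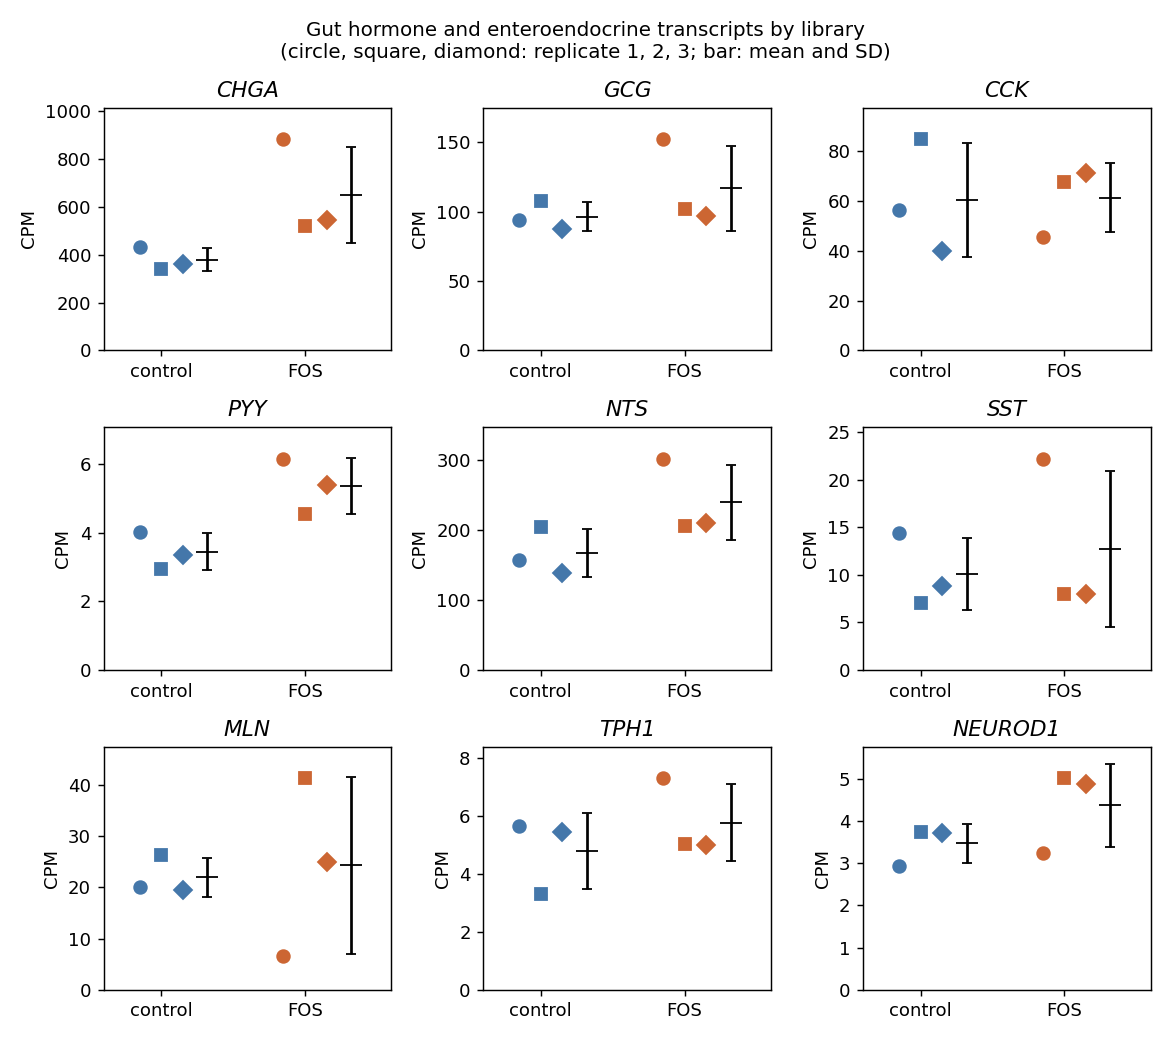
Normalised level of each of the 9 genes (vertical axes, CPM, starting at 0) in the control and FOS libraries, with 1 symbol per replicate number and a bar for the mean and SD. CHGA, PYY and NTS have all 3 FOS points above all 3 control points, by a narrow margin for NTS, and FOS 1 (circle) holds the highest point for 6 of 9 genes and the lowest for MLN.

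CHGA encodes chromogranin A, an acidic protein that packs hormones into secretory granules and serves as a general marker of endocrine cells. It measured 434, 342 and 362 CPM in the control libraries and 883, 521 and 546 CPM in the FOS libraries. The lowest FOS library lay above the highest control library, and FOS 1 was far above the other 5. The log2 fold change was 0.78 (SE 0.23, 95% interval 0.25 to 1.30, edgeR adjusted p = 0.463, unadjusted p = 0.0101). Without FOS 1 it was 0.50 (edgeR adjusted p = 0.453), and among the 4 libraries with W-linked transcripts 0.84 (edgeR adjusted p = 0.57). DESeq2 gave an adjusted p of 0.0699 and, with the replicate number as a block, called CHGA higher (adjusted p = 0.00459, log2 fold change 0.74). The block partly follows the split in W-linked transcripts, which replicate 2 lacked in both groups. DESeq2 with the block called 0.833% of all genes, and 1 of 9 members. edgeR with the same block did not call it (adjusted p = 0.435), and over 19 alternatives the adjusted p ran from 0.00459 to 0.885.

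GCG encodes proglucagon, which is cut into glucagon-like peptides in intestinal L cells. Its level was 94, 108 and 87.4 CPM in the control libraries and 152, 102 and 96.7 CPM in the FOS libraries, so that FOS 1 alone lay above the control range. GCG had a log2 fold change of 0.28 (SE 0.19, 95% interval -0.17 to 0.73, edgeR adjusted p = 0.693), 0.05 without FOS 1 and 0.45 among the 4 libraries with W-linked transcripts. PYY, a peptide that L cells release together with proglucagon products and that slows gut transit in mammals, was low, with 51 to 96 counts per library. It measured 4.03, 2.95 and 3.36 CPM in the control libraries and 6.14, 4.53 and 5.39 CPM in the FOS libraries. All FOS libraries were above all control libraries, and FOS 2 was near control 1. The log2 fold change of PYY was 0.64 (SE 0.25, 95% interval 0.04 to 1.23, edgeR adjusted p = 0.511, unadjusted p = 0.0393), and 0.53 without FOS 1.

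NTS measured 156, 205 and 138 CPM in the control libraries and 301, 206 and 210 CPM in the FOS libraries. The groups were separated by a narrow margin between control 2 and FOS 2, and in FPKM, which carries no composition factor, these libraries changed places at 141.05 and 138.85. For NTS the log2 fold change was 0.52 (SE 0.21, 95% interval 0.04 to 1.00, edgeR adjusted p = 0.509, unadjusted p = 0.0369), 0.33 without FOS 1 and 0.79 among the 4 libraries with W-linked transcripts.

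CCK and MLN are hormones that in mammals come mainly from the upper small intestine. CCK, which contracts the gallbladder and stimulates pancreatic secretion, measured 56.4, 84.6 and 39.7 CPM in the control libraries and 45.4, 67.3 and 71 CPM in the FOS libraries. The groups overlapped throughout, with both the highest and the lowest value in control, and the log2 fold change was 0.02 (SE 0.29, 95% interval -0.65 to 0.70, edgeR adjusted p = 0.988). It was 0.20 without FOS 1 and 0.27 among the 4 libraries with W-linked transcripts. MLN encodes motilin, which drives the fasting waves of gut contraction in mammals. Its level was 20.1, 26.4 and 19.5 CPM in the control libraries and 6.55, 41.3 and 25 CPM in the FOS libraries. FOS 1 was the lowest library and FOS 2 the highest, a 6.31-fold range within the FOS group. The within-group SD of log2 CPM was 0.982, above that of 96.2% of all genes tested. MLN had a log2 fold change of 0.14 (SE 0.55, 95% interval -1.14 to 1.42, edgeR adjusted p = 0.957), 0.60 without FOS 1, -0.47 without FOS 2 and -0.32 among the 4 libraries with W-linked transcripts.

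SST encodes somatostatin, which D cells release to inhibit other endocrine cells. It measured 14.4, 7.05 and 8.85 CPM in the control libraries and 22.2, 7.94 and 7.97 CPM in the FOS libraries. FOS 1 and control 1 were high and the other 4 libraries were close together. For SST the log2 fold change was 0.33 (SE 0.46, 95% interval -0.76 to 1.42, edgeR adjusted p = 0.853) and turned to -0.34 without FOS 1. A separate row described as somatostatin II, SST7 in RefSeq, had a mean of 10.65 FPKM and is not among the 9 genes. It measured 4.81, 6.13 and 4.32 CPM in the control libraries and 2.97, 7.04 and 6.85 CPM in the FOS libraries, lowest in FOS 1. Its log2 fold change was 0.15 (SE 0.36, edgeR adjusted p = 0.927). TPH1, the rate-limiting enzyme of serotonin synthesis in the gut, measured 5.65, 3.3 and 5.44 CPM in the control libraries and 7.29, 5.02 and 5 CPM in the FOS libraries. Control 2 was low and FOS 1 high, and the log2 fold change was 0.27 (SE 0.30, 95% interval -0.44 to 0.97, edgeR adjusted p = 0.82). It was 0.07 without FOS 1, 0.06 without control 2 and 0.14 among the 4 libraries with W-linked transcripts. NEUROD1, a transcription factor of late endocrine precursors, measured 2.94, 3.76 and 3.73 CPM in the control libraries and 3.24, 5.02 and 4.88 CPM in the FOS libraries. FOS 1 lay within the control range and the other FOS libraries above it. NEUROD1 had a log2 fold change of 0.33 (SE 0.28, 95% interval -0.32 to 0.99, edgeR adjusted p = 0.755), and 0.51 without FOS 1.

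**Figure D3:**
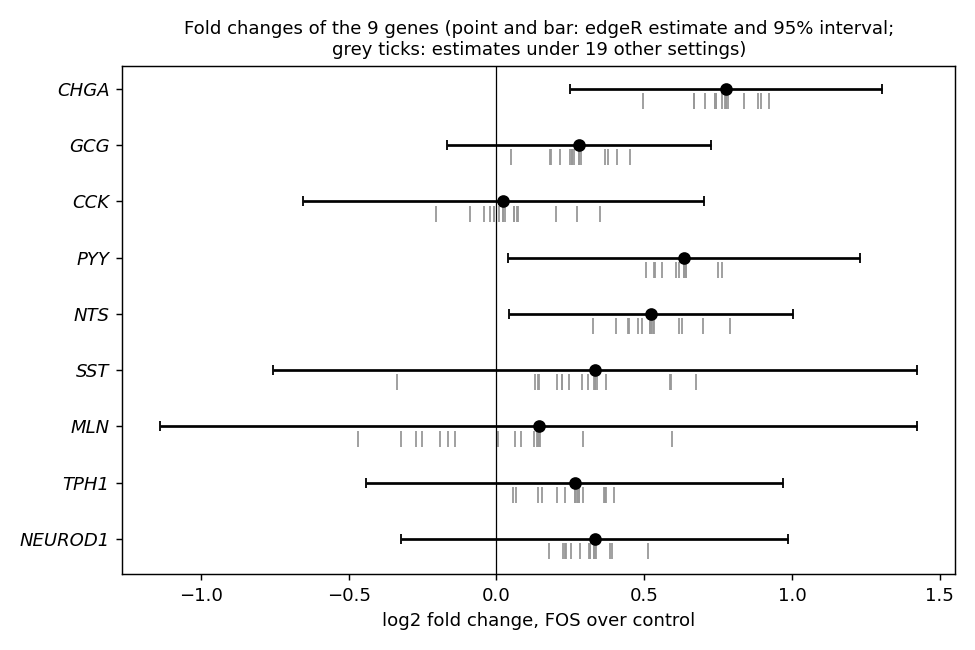
Log2 fold change of FOS over control (horizontal axis) for each of the 9 genes, with the edgeR estimate and its 95% interval in black and the estimates under 19 other settings as grey ticks. The intervals of CHGA, PYY and NTS lie above 0, those of the other 6 genes include 0, and the ticks of CCK, SST and MLN fall on both sides of 0.

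Across libraries the members did not share 1 profile. The closest pair by the root mean square difference of centred log2 CPM over the 6 libraries was GCG and NTS at 0.159, followed by CHGA and PYY at 0.161, and the farthest was SST and MLN at 1.35. Each of the 8 pairs with MLN differed by at least 0.649. Profiles over 6 libraries are a small basis. For each member a gene outside the 9 was closer than any other member. Since 11923 genes were compared with each member, this says little about whether the members share a profile. The gene nearest to CHGA among 11923 named genes was NDUFS3, a subunit of respiratory complex I, at 0.0878. Nearest to GCG was ST14, an epithelial membrane protease, at 0.0436, and nearest to NTS was CREB3L3, a transcription factor of liver and intestine, at 0.0678. The gene nearest to MLN was SLC18A3, the vesicular acetylcholine transporter of neurons, at 0.203. FAM210B for PYY, FGL1 for CCK, LCA5L for SST, MPZL2 for TPH1 and DBNDD1 for NEUROD1 were nearest at 0.101, 0.103, 0.115, 0.081 and 0.0471.

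**Figure D4:**
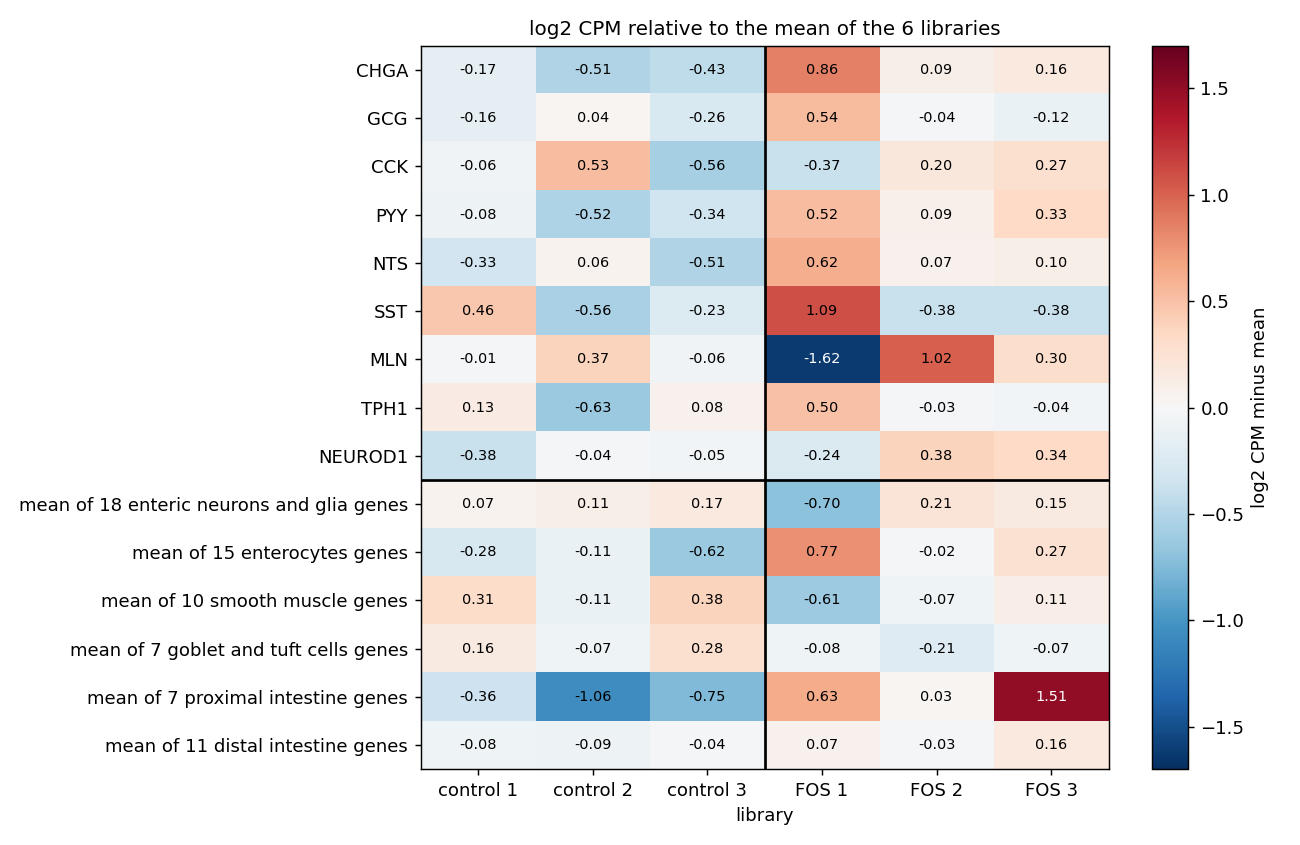
Log2 CPM of each gene in each library minus the mean of the 6 libraries (colour and printed value), for the 9 genes above the line and the mean of marker genes of other cell types and gut segments below it. FOS 1 is high for CHGA, GCG, PYY, NTS, SST, TPH1 and the enterocyte mean, and low for CCK, MLN, NEUROD1 and the means of neuron and muscle genes.

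Enterocyte genes had higher summed levels in FOS beside CHGA, NTS and PYY, while goblet and tuft cell genes were split by sign. The summed level of the 15 enterocyte genes was 15548 to 21518 CPM in the control libraries and 24229 to 31130 CPM in the FOS libraries. ANPEP alone held 6232 to 8626 CPM of this in control and 8468 to 11734 CPM in FOS. A log2 fold change above 0 was seen for 14 of 15 (median 0.48), against 51.1% of all genes tested, and 0 passed with edgeR. Of these 15 genes 6 had an unadjusted p under 0.05 with edgeR, all higher in FOS, where 5.14% of all genes tested met this in that direction. DESeq2 called APOA1, an apolipoprotein (adjusted p = 0.00222), which it did not call with the replicate block (adjusted p = 0.371), and with the block it called the brush border enzymes SI, LCT and ALPI instead (adjusted p = 0.00908, 0.000104 and 3.39e-05). Of 7 goblet and tuft cell genes, 3 had a log2 fold change above 0 (median -0.13), and edgeR and DESeq2 called 0. At an unadjusted p under 0.05 with edgeR, 1 was higher and 1 lower, where 5.14% and 4.27% of all genes tested were. CLCA1, a goblet cell product, had an unadjusted p under 0.05 and was higher in every FOS library (log2 fold change 0.75, SE 0.27, edgeR adjusted p = 0.496), and DESeq2 with the block called it (adjusted p = 0.00403). TFF3, a trefoil peptide of goblet cells named here after its values were seen, was lower in every FOS library (log2 fold change -1.55, SE 0.51, edgeR adjusted p = 0.479) at under 2 CPM throughout. EPCAM, a surface protein of all gut epithelial cells, measured 1450.4, 1797 and 1288 CPM in the control libraries and 2441, 1546 and 1756 CPM in the FOS libraries. Per 1000 CPM of EPCAM, a measure chosen after the data were examined, CHGA measured 299.5, 190.4 and 281 CPM in the control libraries and 362, 337 and 311 CPM in the FOS libraries. The groups did not overlap, and the ratio of means was 1.31, smaller than the 1.71 without that scaling. NTS per EPCAM was likewise higher in all FOS libraries, with a ratio of 1.14, while PYY overlapped with a ratio of 1.21. For GCG, CCK, SST, MLN, TPH1 and NEUROD1 this ratio lay between 0.878 and 1.05. These ratios depend on the gene used for scaling. The ratio of mean CPM was 1.27 for EPCAM, lower for FABP2 (1.05) and CDH17 (1.22), and higher for ANPEP (1.40) and ALPI (1.76). Per 1000 CPM of CHGA, GCG was 257 ± 51 CPM in the control libraries and 182 ± 12.4 CPM in the FOS libraries (SD, n = 3), without overlap, and the other 7 members overlapped. CHGA was itself higher in every FOS library, which lowers any ratio to it, and each of these members had a lower mean per CHGA in FOS. The share of all genes without overlap per EPCAM or per CHGA was not computed.

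Markers of gut segment, known from mammals, also differed between libraries. The mean log2 CPM of 7 genes of the proximal intestine was 4.43, 3.73 and 4.04 in the control libraries and 5.42, 4.82 and 6.30 in the FOS libraries. Among them SLC2A2, a glucose transporter, was at 0.173 to 1.8 CPM in the control libraries and 3.28 to 33.4 CPM in the FOS libraries, and TMPRSS15, the enteropeptidase, at 0.721 to 3.2 and 0.54 to 100.4 CPM. FABP6, the ileal bile acid carrier, stood at 4529 to 5756 CPM in the control libraries and 1079 to 4003 CPM in the FOS libraries, while the mean log2 CPM of the 11 distal genes was 5.86 to 5.91 and 5.92 to 6.11. The edgeR adjusted p of SLC2A2, TMPRSS15 and FABP6 was 0.434, 0.483 and 0.503, and DESeq2 with the replicate block called SLC2A2 higher and FABP6 lower (adjusted p = 1.91e-15 and 0.000145). MLN had its lowest level in FOS 1, where SLC2A2 was highest and where the mean of the neuron and glia genes was lowest. The mean of the 7 proximal genes was highest in FOS 3, where MLN stood at 25 CPM. The part of gut segment, epithelial content and neuron content in the levels of the members was not tested.

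Further gut hormones had levels on both sides of the members. Of 21 looked for, 18 were found and 13 passed the filter, with a median log2 fold change of 0.39. edgeR and DESeq2 called 0, and 1 was higher at an unadjusted p under 0.05, where 5.14% of all genes tested were. The row named GUCA2A in the table and GUCA2B in RefSeq encodes a guanylin peptide of the epithelium, which regulates salt and water secretion, and had a mean of 4515 FPKM. Its log2 fold change was 0.39 (SE 0.30). SCT, the hormone secretin, stood at 20.3 to 51.6 CPM in the control libraries and 37.2 to 47.8 CPM in the FOS libraries. The neuropeptides VIP and GAL, which in the gut come largely from enteric neurons, had their lowest values in FOS 1, at 18 and 13.3 CPM against 30.7 CPM or more elsewhere. VIP was lower in every FOS library, at 18, 37.8 and 30.8 CPM against 43.1, 43.1 and 42.6 CPM in control. Its log2 fold change was -0.57 (SE 0.25, edgeR adjusted p = 0.528), while GAL overlapped between the groups. UCN3 had the unadjusted p under 0.05 and stood at 2.94 to 5.76 CPM in the control libraries and 6.12 to 8.51 CPM in the FOS libraries (log2 fold change 0.80, SE 0.31, edgeR adjusted p = 0.508). GIP, an incretin chosen here after its values were seen, stood at 2.67 to 6.61 and 5.5 to 10.6 CPM. A row described as preprogastrin held 2 to 9 counts per library.

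Genes that pack and process hormones centred near 0. Of 24 genes looked for in this list, 21 passed the filter, the median log2 fold change was 0.02, edgeR and DESeq2 called 0, and 0 had an unadjusted p under 0.05. PCSK1, the convertase that cuts prohormones, had a log2 fold change of 0.10 (SE 0.17), and CPE, which trims the cut ends, one of -0.17 (SE 0.25). SCG2, another granin, measured 55.4, 89.3 and 54.5 CPM in the control libraries and 55, 139.6 and 95 CPM in the FOS libraries, with FOS 1 at the level of the lower controls (log2 fold change 0.54, SE 0.34, edgeR adjusted p = 0.672). VAMP2, a vesicle protein, had a log2 fold change of -0.31 (SE 0.19).

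Lineage factors and serotonin genes were split by sign. Of 16 lineage factors that passed the filter, 8 had a log2 fold change above 0 and 8 below. The median was 0.12, and edgeR and DESeq2 called 0. Their mean log2 CPM was 1.83, 1.95 and 1.90 in the control libraries and 2.12, 2.18 and 2.06 in the FOS libraries, without overlap. That mean gives genes of few counts the same weight as the others. The summed level of the 18 factors found overlapped, at 121 to 133 CPM in the control libraries and 126 to 140 CPM in the FOS libraries. ISL1, a factor of endocrine precursors chosen here after its values were seen, was the 1 gene of the 16 at an unadjusted p under 0.05. It was higher in FOS, where 5.14% of all genes tested met this in that direction. Its level stayed at 0.231 to 0.586 CPM in the control libraries and 0.743 to 1.53 CPM in the FOS libraries (edgeR adjusted p = 0.503). FEV, a factor of serotonin cells, measured 5.17, 6.36 and 7.62 CPM in the control libraries and 9.38, 10.5 and 6.63 CPM in the FOS libraries (log2 fold change 0.46, SE 0.26, edgeR adjusted p = 0.626). INSM1, another factor named here after its values were seen, measured 1.26, 1.56 and 1.39 CPM in the control libraries and 2.77, 2.44 and 1.74 CPM in the FOS libraries. Its log2 fold change was 0.72 (SE 0.32, edgeR adjusted p = 0.55). Of the 16 factors, 2 were higher in every FOS library and 0 were lower in every one, against 8.58% and 7.84% of all genes tested. SOX4, FOXA1, FOXA2 and ETV1, all among the 8 below 0, had log2 fold changes between -0.07 and -0.00046. Of 12 serotonin and amine genes that passed the filter, 6 had a log2 fold change above 0 and edgeR and DESeq2 called 0. HTR7 was the 1 gene of these at an unadjusted p under 0.05, lower in FOS, where 4.27% of all genes tested were. DDC, which completes serotonin synthesis, had a log2 fold change of -0.00075 (SE 0.26), and SLC6A4, the serotonin transporter, 0.09 (SE 0.12). MAOA, which breaks serotonin down, measured 467, 313 and 319 CPM in the control libraries and 809, 377 and 389 CPM in the FOS libraries, with FOS 1 again highest (edgeR adjusted p = 0.666). HTR7, a serotonin receptor, stood at 13.1 to 16.6 CPM in the control libraries and 7.32 to 10.4 CPM in the FOS libraries (log2 fold change -0.73, SE 0.19, edgeR adjusted p = 0.441).

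Among receptors, 17 of 24 genes looked for passed the filter, with a median log2 fold change of -0.06. edgeR called 0, with 1 higher and 2 lower at an unadjusted p under 0.05, where 5.14% of all genes tested were higher and 4.27% lower on that measure. Groups without overlap and lower in FOS made up 2 of these 17 and 7.84% of all genes tested. SORT1, sortilin, which binds neurotensin and also sorts proteins in many cell types, measured 164, 173 and 159 CPM in the control libraries and 227, 221 and 239 CPM in the FOS libraries. The groups were well apart, by 0.47 on the log2 scale (SE 0.10, edgeR adjusted p = 0.414), and DESeq2 called it higher (adjusted p = 0.00357), though not with the replicate block (adjusted p = 0.18). GLP2R, the receptor of the glucagon-like peptide that promotes mucosal growth, stood at 32.3 to 49.4 CPM in the control libraries and 22.8 to 32.1 CPM in the FOS libraries (log2 fold change -0.53, SE 0.20, edgeR adjusted p = 0.503). VIPR2 stood at 5.47 to 6.45 and 2.57 to 4.32 CPM (edgeR adjusted p = 0.48). Both receptors are found largely outside the epithelium. The smooth muscle list had a median log2 fold change of -0.40, with 0 of 10 genes called by edgeR or DESeq2. Of these 10 genes, 1 was lower at an unadjusted p under 0.05, and 0 were lower in every FOS library. Any part of muscle content in the levels of GLP2R and VIPR2 was not tested. VIPR1, SCTR and SSTR2 overlapped between groups, and SSTR2 ranged from 2.58 to 19.1 CPM in FOS.

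Of the sensors, 12 of 19 genes were found and 9 passed the filter. edgeR and DESeq2 called 0, with TRPM5 higher at an unadjusted p under 0.05, where 5.14% of all genes tested were. TRPM5, a cation channel of chemosensory and some endocrine cells, measured 74.2, 98.6 and 73.8 CPM in the control libraries and 188, 102 and 153 CPM in the FOS libraries. All FOS libraries were above control, by a small margin in FOS 2 (log2 fold change 0.84, SE 0.23, edgeR adjusted p = 0.443). FFAR4, a receptor of long-chain fatty acids, was at 7.75 to 12 and 10.2 to 17.4 CPM. The receptors of short-chain fatty acids, FFAR2 and FFAR3, were not found by these symbols and are not analysed here.

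**Figure D5:**
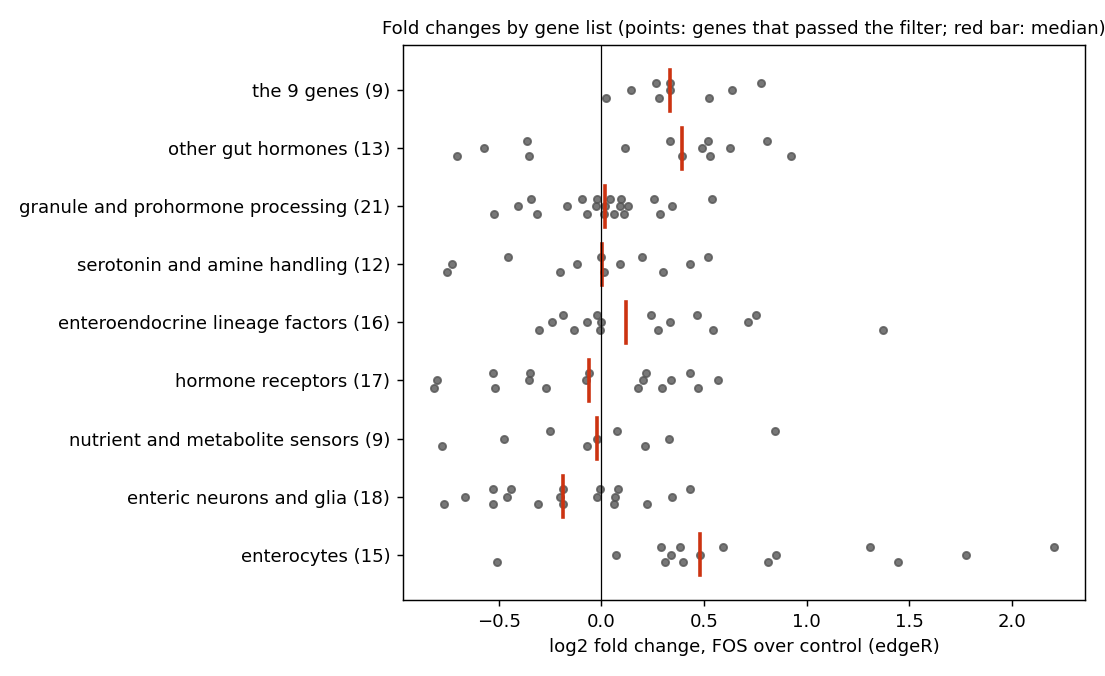
Log2 fold change of FOS over control by edgeR (horizontal axis) for the genes that passed the filter in each list, with the number of genes in brackets and the median as a red bar. The 9 genes all lie above 0 (median 0.33), the granule and processing genes centre on 0.02, the enteric neuron and glia genes on -0.19 and the enterocyte genes on 0.48.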

How the data were processed

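Messenger RNA was profiled in 6 chicken ileum libraries, grouped by their titles (3 control, 3 FOS). The authors deposited estimated counts and FPKM per gene, per the file headers; 8.06% of the count values were not whole (tolerance 1e-09), and counts were rounded for count tests. Per the submitters' processing notes, the tools were Bowtie2, HISAT2, StringTie 1.3.1, fastp 0.18.0 and DESeq2, in roles not stated. Genome build and counter: not given in the sources used here. Per the labels' protocols the library kit is one for small RNA. The 12 value columns of 6 other libraries were not used.

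Genes passing filterByExpr (13807) were scaled by TMM and tested with edgeR 4.0.16 (quasi-likelihood, no covariate, Benjamini-Hochberg, threshold 0.05) in R 4.3.3. The SE was derived from the fold change and the F statistic. CPM uses TMM-scaled library sizes, and 1 CPM stood for 14.7 to 18.1 counts before scaling, so low genes are less precise. Floors cover counting error only. Scripts were tested on simulated data. Symbols come from the table or, through gene IDs, from RefSeq GRCg7b. Of 232 list entries, 208 had a row of their own. KRT20 and POU2F3 carry other names in RefSeq.

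The members, lists and alternatives were chosen with earlier results of these data known. Named genes were the 9 members, HINTW, the nearest gene to each member, and list genes with a mean of at least 1 CPM that were among the 5 highest by FPKM in their list or had an unadjusted p under 0.05. A gene that this rule names is not reported here. Same-numbered libraries had correlated deviations (0.24, 0.388 and 0.198), all over 0.1, so the number was used as a block in alternatives. The main test held no block. Without 61 genes that followed the W-linked split the correlations were 0.156, 0.0484 and 0.0752, so that those of numbers 2 and 3 fell under 0.1. Number 2 lacked W-linked transcripts in both groups, so the block partly follows that split. The replicate block was an alternative, beside RLE and upper-quartile factors, other filters, DESeq2 1.42.0, limma-voom (limma 3.58.1), limma on log2(FPKM + 1) and log2(FPKM + 0.1), each library left out, the presence of W-linked transcripts (above 10 CPM of HINTW) as covariate or filter, and robust empirical Bayes. The authors' FPKM values served to compare levels between genes, for the hormone shares, for the order of the NTS libraries and in those limma alternatives.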

Additional observations from a re-analysis of the deposited data

How the results depend on the processing

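Over 19 alternatives the edgeR count of 3 genes called became 149 with DESeq2, 115 with DESeq2 and the replicate block, and 1 with limma-voom, and it ran from 0 (without control 1 or control 3) to 4 (without FOS 1) when 1 library was left out. With edgeR and the replicate block it was 3, and the block changed the call of 1 member, CHGA with DESeq2. Of 171 values for the 9 genes, 156 kept their direction and side of the threshold. CCK had log2 fold changes of -0.0066 and -0.0063 with FPKM pseudocounts of 1 and 0.1 and of -0.20 to 0.35 when 1 library was left out. SST had -0.34 without FOS 1 and 0.67 at most when another library was left out. MLN had -0.19 with limma-voom, -0.16 with DESeq2 and the block, -0.14 with edgeR and the block, -0.25 and -0.27 with those pseudocounts, -0.32 in the 4 libraries with W-linked transcripts, and -0.47 to 0.60 when 1 library was left out. The cause was not tested. PYY, TPH1 and NEUROD1 rest on 48 to 108 counts per library and the other members on 97 to 13082, and the common biological coefficient of variation was 24.6%. Whether depth or the spread between libraries limits the calls was not tested.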
